A study of Homo sapiens with 24 samples.

Results

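Insulin and insulin-like growth factor (IGF) signalling was followed in LNCaP cells, an androgen-responsive human prostate cancer line, through 10 genes picked by symbol. They encode the ligands IGF1 and IGF2, the receptors IGF1R and INSR, the receptor substrates IRS1 and IRS2 and the binding proteins IGFBP2, IGFBP3, IGFBP4 and IGFBP5. The tables of the ligand experiment list 22227 genes in all, and those of the siRNA experiment 23028. In the ligand experiment the cells received vehicle, 10 μM enzalutamide (an androgen receptor antagonist) or 10 nM dihydrotestosterone (DHT, an androgen), each ligand for 4 h or 24 h, with 2 replicates a group. The record lists 4 vehicle samples, of which 3 have columns numbered replicate 1 and were summed as 1 library, an inference from the column names and values that remains uncertain. For these vehicle samples no time is stated, and one vehicle group served both times. In the siRNA experiment cells carried a control siRNA (siControl) or an siRNA pool against the transcription factor GATA2 (siGATA2), and were treated for 24 h with vehicle or with 25 μM enzalutamide, with 3 replicates a group. All cells were held in medium with charcoal-stripped serum before treatment, which removes most steroid hormones, so the vehicle cells of the ligand experiment were low in androgen.

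IGF1 and IGF2 bind the receptor tyrosine kinase IGF1R, and insulin, as well as IGF2 on one splice form, binds the related receptor INSR. The active receptors phosphorylate IRS1 and IRS2, which recruit phosphatidylinositol 3-kinase and so activate AKT and mTOR, while a second branch runs through MAP kinases. IGF-binding proteins hold the secreted ligands outside the cell, where they can block or prolong the signal, and prostate epithelial cells secrete several of them.

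The depth of the ligand libraries was 59985287 and 38894876 estimated counts for vehicle, 42131436 and 49283955 for enzalutamide at 4 h, and 49986088 and 49029465 for the same drug at 24 h. DHT libraries held 53145781 and 53779493 estimated counts at 4 h and 56454994 and 40281721 at 24 h. Values of this experiment are given in CPM, counts scaled to a common library size, for which edgeR's TMM factors were used. The siRNA tables hold RPKM (reads scaled to gene length and to the number of mapped reads), and from the steps between small values their libraries had between about 58700000 and 76700000 mapped reads. At these depths between 53.8% and 58.3% of the weakly expressed genes used came to whole numbers of reads, so the depths are rough. A gene is called up or down where its p, adjusted by the Benjamini-Hochberg method over all genes tested in that comparison, was below 0.05 (edgeR for the ligand counts, limma for log2(RPKM + 0.1)). These p-values measure only the spread between the libraries at hand. Fold changes with 0.1 RPKM added understate the change of weakly expressed genes. In bulk RNA, fewer cells that express a gene and less of its RNA per cell cannot be told apart.

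The cells carried luminal markers, with all 8 luminal prostate genes of the marker list above 1 RPKM on average over the 12 siRNA libraries. Their sum was between 1350 and 1405 RPKM in siControl vehicle, between 739 and 794 in siControl with enzalutamide, between 684 and 702 in siGATA2 vehicle and between 652 and 672 in siGATA2 with enzalutamide. KLK3 was at 791, 286, 24.1 and 18.5 RPKM on average in the same order. Its fall made up most of the difference from siControl vehicle in siControl with enzalutamide. In both siGATA2 groups KLK3 fell by more than the list did, so the sum of the other luminal genes was higher than in siControl vehicle. Basal markers were near 0, with a summed level of at most 0.113 RPKM in any library and KRT14 as the most abundant of 3. Of 5 leukocyte genes CD3E was at 0 in every library and PTPRC at 0.00297 RPKM on average, while CD68, a lysosomal protein gene that many cell types transcribe, averaged 7.84 RPKM. The summed leukocyte list was between 3.67 and 3.95 RPKM in siControl vehicle libraries, between 4.69 and 5.39 in siControl with enzalutamide, between 10.7 and 12.4 in siGATA2 vehicle and between 11.2 and 11.7 in siGATA2 with enzalutamide. The defining genes PTPRC and CD3E were thus at or near 0 while the sum, nearly all CD68, was higher with siGATA2. The fibroblast and smooth muscle list of 8 genes, led by COL1A1 and with DCN at 0.000977 RPKM, summed to between 12.3 and 13.4 RPKM in siControl vehicle, between 14.7 and 15.9 in siControl with enzalutamide, between 13.9 and 17.5 in siGATA2 vehicle and between 15.0 and 17.2 in siGATA2 with enzalutamide. The endothelial list of 3 genes, mostly VWF, with CDH5 at 0.0133 RPKM, summed to between 0.954 and 0.994 RPKM in siControl vehicle, between 0.371 and 0.499 in siControl with enzalutamide, between 1.26 and 1.30 in siGATA2 vehicle and between 0.801 and 0.865 in siGATA2 with enzalutamide.

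The lists also moved with the ligands, in summed CPM, the luminal list from 3655 and 3548 in vehicle to 4789 and 4777 after 4 h of DHT and 5711 and 5754 after 24 h. The leukocyte list, led by CD68, was at 1.52 or less in both vehicle libraries and at 2.87 and 2.80 after 24 h of DHT, and the basal list at 0.0330 and 0.127 in vehicle and at 0.443 and 0.485 after 24 h of DHT. The endothelial list, led by VWF, was at 15.6 and 16.4 in vehicle, 12.7 and 13.1 after 4 h of enzalutamide, 9.05 and 8.47 after 24 h, 18.4 and 17.9 after 4 h of DHT and 21.4 and 20.7 after 24 h. The fibroblast and smooth muscle list was at 28.2 and 28.6 in vehicle and 17.3 and 20.0 after 24 h of DHT. The part of these shifts in the ligand changes of the members was not tested.

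GATA2 itself measured the knockdown. It was at 83.8, 77.0 and 86.1 RPKM in the siControl vehicle libraries, 128, 132 and 128 RPKM in siControl with enzalutamide, 54.3, 53.4 and 46.6 RPKM in siGATA2 vehicle and 60.1, 64.7 and 61.5 RPKM in siGATA2 with enzalutamide. Every siGATA2 library was below every siControl library, and more than 46 RPKM of the transcript was left, so the silencing was partial at the RNA level. GATA2 fell with siGATA2 by a log2 fold change of 0.68 in vehicle (standard error 0.0594, adjusted p = 3.12e-06, limma) and by 1.06 in enzalutamide (adjusted p = 1.07e-07). In siControl cells 25 μM enzalutamide raised GATA2 by 0.65 (adjusted p = 1.17e-05, limma), so the silenced and control cells differed more in GATA2 under the drug than without it (interaction -0.38, adjusted p = 0.00823). With 10 μM enzalutamide in the ligand experiment GATA2 fell by 0.39 after 4 h (adjusted p = 0.000198, edgeR) and by 0.19 after 24 h (adjusted p = 0.00892). With DHT, against the same vehicle libraries, it fell by 0.31 after 4 h (adjusted p = 0.000852, edgeR) and fell by 0.33 after 24 h (adjusted p = 7.03e-05). The doses and experiments differ, and no test compared them.

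An androgen-responsive gene checked the ligand labels. FKBP5, a co-chaperone gene of steroid receptors, was at 91.7 and 89.5 CPM in vehicle, 77.0 and 75.3 CPM at 4 h of enzalutamide, 66.2 and 62.8 CPM at 24 h, 207 and 204 CPM at 4 h of DHT and 348 and 344 CPM at 24 h. Every DHT library was above vehicle and every enzalutamide library below it. FKBP5 rose by 1.18 after 4 h of DHT (adjusted p = 2.3e-10, edgeR) and by 1.93 after 24 h (6.54e-13), and fell by 0.25 after 4 h of enzalutamide (0.00101) and by 0.49 after 24 h (4.68e-07).

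The members were spread over a wide range of expression. By mean RPKM in siControl vehicle cells, a scale that allows genes to be compared, the order was IGFBP2 (67.8), INSR (6.50), IGFBP3 (4.54), IGF1R (2.32), IGF1 (1.97), IRS2 (1.34), IGFBP5 (1.07), IGF2 (0.750), IRS1 (0.591) and IGFBP4 (0.459). No neighbours in this order overlapped in their 3 replicates. IGFBP2 stood above 96.4% of the listed genes, and IGFBP4 above 42.6%.

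In the ligand experiment 9 of the 10 members had enough counts for a test, as did 15555 genes in all. Enzalutamide raised 2 of them at 4 h (IGFBP3 and IRS2), where 6.94% of all tested genes rose and 6.68% fell, and lowered 0 (edgeR, 0 also at an unadjusted p below 0.05). After 24 h of the drug 4 had risen (IGFBP3, IRS1, IRS2 and INSR) and 1 had fallen (IGFBP2), against 16.4% and 17.0% of all genes. DHT raised 4 at 4 h (IGF1R, IRS1, IRS2 and IGFBP3), against 4.66% of all genes, and lowered 0 (edgeR, 0 at an unadjusted p), against 2.11%. At 24 h of DHT 3 were up (IGF1R, IGF1 and IRS2) and 2 down (IGF2 and IGFBP5), where the shares of all genes were 26.9% and 23.2%. Between the times, enzalutamide lowered 1 (IGFBP2) and raised 0 (edgeR, 2 up at an unadjusted p), against 12.9% and 11.7% of all genes. DHT at 24 h differed from DHT at 4 h in 1 member that was higher (IGF1) and 4 that were lower (IRS1, IRS2, IGFBP3 and IGFBP5), against 26.3% and 23.5%. The ligand comparisons share the vehicle libraries.

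These counts moved with single libraries. Without enzalutamide 24 h replicate 2 there were 3 calls at 24 h of the drug in place of 5. Without vehicle replicate 1, vehicle replicate 2, DHT 24 h replicate 1 or DHT 24 h replicate 2 there were 3 at 24 h of DHT in place of 5. Without vehicle replicate 1, vehicle replicate 2 or enzalutamide 4 h replicate 1 there were 2 between the times of enzalutamide in place of 1. The median log2 fold change of the 9 members was 0.026 after 4 h of enzalutamide and 0.13 after 24 h, beside 0.0015 and 0.015 for all genes. For DHT it was 0.40 at 4 h and 0.077 at 24 h, beside -0.0085 and 0.0013. Between the times it was -0.022 for enzalutamide and -0.60 for DHT, beside 0.0058 and -0.0030.

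In the siRNA experiment all 10 members were tested, with 20369 genes. Enzalutamide in siControl cells raised 3 (IGFBP3, IRS2 and INSR) and lowered 2 (IGF1 and IGFBP5), against 17.7% and 24.4% of all genes. In siGATA2 cells enzalutamide called 0 members (limma, with INSR up and IGFBP5 down, 2 in all, at an unadjusted p below 0.05, and 0 in every alternative), where 0.221% of all genes rose and 0.191% fell. These shares stand for 45 and 39 genes, and were unstable. With the replicate block 14 genes rose and 15 fell, and without siGATA2 enzalutamide replicate 1 these numbers were 15 and 12. SiGATA2 in vehicle raised 2 (IGF2 and INSR) and lowered 4 (IGFBP3, IGF1, IGF1R and IGFBP5), against 24.2% and 31.4% of all genes. Under enzalutamide siGATA2 raised the same pair, IGF2 and INSR, and lowered 6 (IGFBP3, IGF1R, IGFBP5, IRS2, IGF1 and IGFBP2), against 26.3% and 28.1%. The effect of enzalutamide itself differed between the siRNAs for 3 members, upward for IGF1 and downward for IGFBP3 and IRS2, against 15.0% and 10.8% of all genes. Comparisons that share a group of libraries are not independent of each other.

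The median log2 fold change of the 10 members in these comparisons was 0.046 for enzalutamide in siControl, 0.028 for enzalutamide in siGATA2, -0.20 for siGATA2 in vehicle, -0.44 for siGATA2 in enzalutamide and -0.074 for the interaction. For all genes it was -0.023, -0.010, -0.027, -0.0026 and 0.015, in that order.

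**Figure D1:**
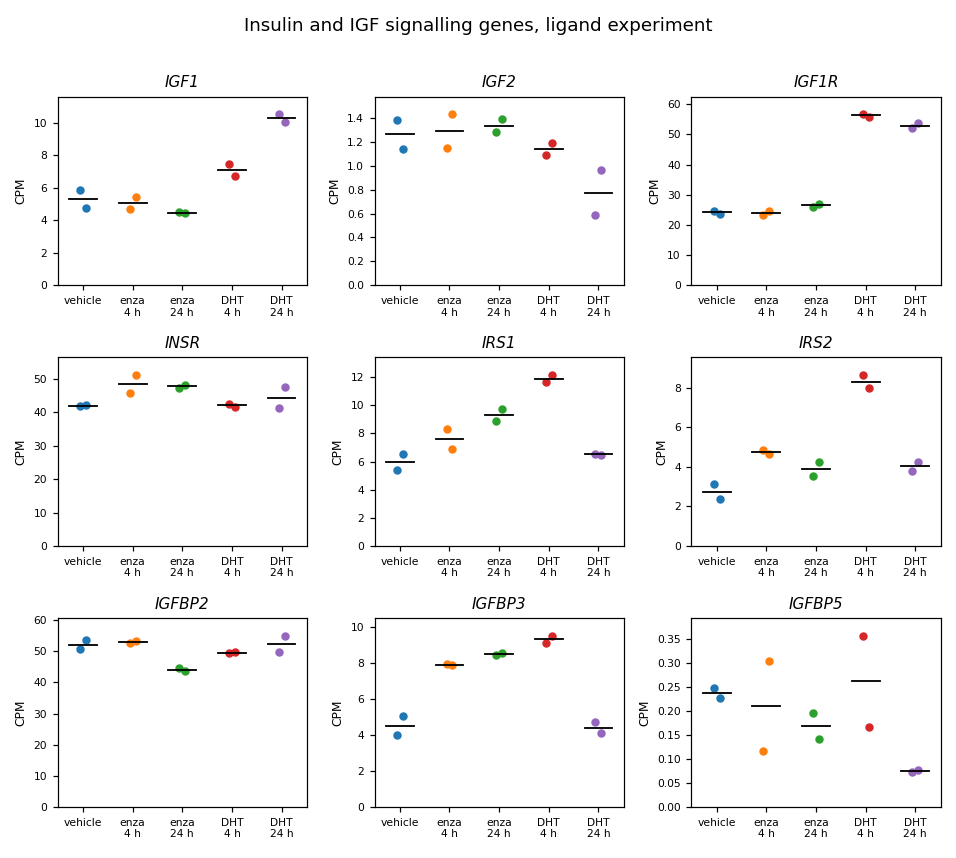
CPM of 9 members in each library of the ligand experiment (points, 2 a group) with the group mean (line); each panel has its own axis from 0. IGF1R is high in all DHT libraries, with 52.1 CPM as the lowest, and IRS1, IRS2 and IGFBP3 peak at 4 h of DHT.

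**Figure D2:**
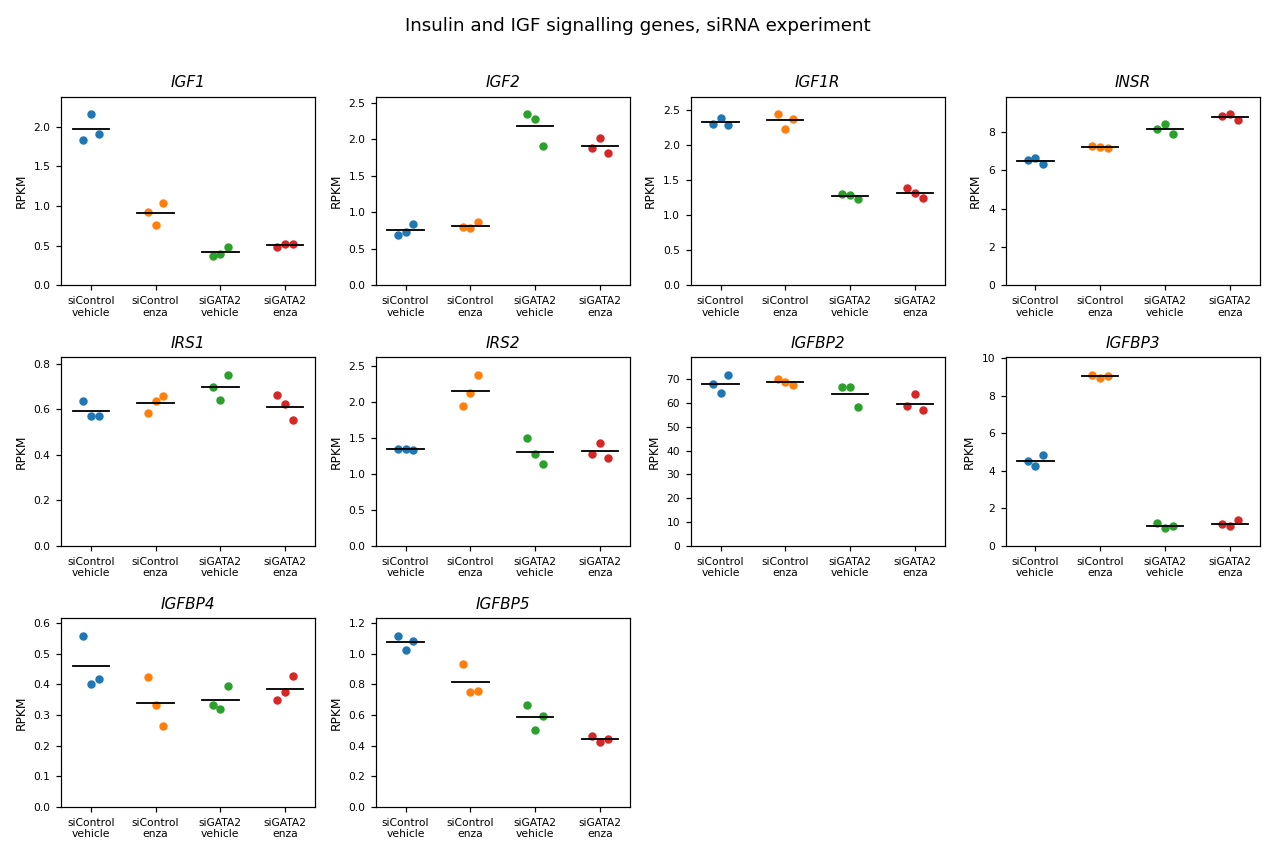
RPKM of the 10 members in each siRNA library (points, 3 a group) with the group mean (line); each panel has its own axis from 0. IGFBP3 is near 9 RPKM in siControl with enzalutamide and at most 1.36 RPKM in every siGATA2 library.

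**Figure D3:**
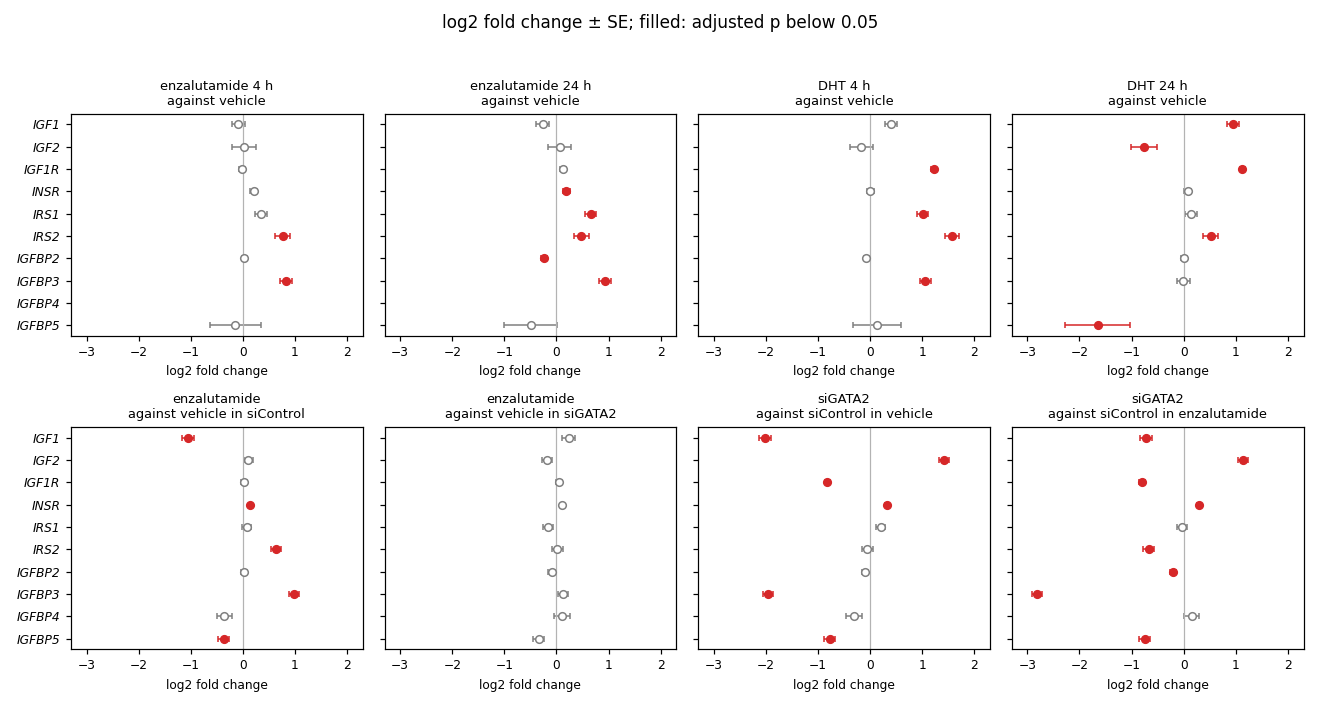
Log2 fold change of each member with its standard error in 8 comparisons, filled where the adjusted p was below 0.05. In siGATA2 cells 0 members are filled for enzalutamide, and IGFBP3 has the lowest value of any member, -2.82, for siGATA2 in enzalutamide.

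Among the ligands, IGF1, the growth factor that the liver secretes and many tissues also make, was at 5.88 and 4.72 CPM in vehicle, 4.68 and 5.41 CPM at 4 h of enzalutamide, 4.52 and 4.42 CPM at 24 h, 7.45 and 6.73 CPM at 4 h of DHT and 10.6 and 10.0 CPM at 24 h. Both DHT groups lay above vehicle without overlap, the 24 h group highest, and the 24 h enzalutamide libraries lay just below vehicle. IGF1 rose with DHT at 24 h by a log2 fold change of 0.94 (standard error 0.111, adjusted p = 1.2e-05, edgeR, n = 2). At 4 h its value was 0.40 (adjusted p = 0.0532, edgeR). This passed with a term in edgeR for the set given in the column names, an alternative chosen after seeing the data (0.47, 0.0283), without a filter (0.00565), with 4 separate vehicle columns (0.0344), and without vehicle replicate 1 (0.0231), enzalutamide 4 h replicate 1 (0.0246) or replicate 2 (0.0235), with a range of 0.00565 to 0.338 over all alternatives. It was 0.54 higher at 24 h than at 4 h of DHT (adjusted p = 0.000914, edgeR). With the set term that difference was 0.30 (adjusted p = 0.212, edgeR, the highest of a range from 1.86e-06). The value for enzalutamide at 24 h was -0.26 (adjusted p = 0.113, edgeR), which passed with the set term (-0.45, 0.0391) and with 4 separate vehicle columns (0.0404). Without vehicle replicate 2, which leaves 1 vehicle library, the value was -0.41. Over all alternatives it ranged from -0.45 to -0.091.

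In the siRNA experiment IGF1 was at 1.84, 2.17 and 1.91 RPKM in siControl vehicle, 0.920, 0.765 and 1.03 RPKM in siControl with enzalutamide, 0.370, 0.393 and 0.483 RPKM in siGATA2 vehicle and 0.479, 0.514 and 0.516 RPKM in siGATA2 with enzalutamide. All libraries of the other groups were below the siControl vehicle libraries, and the siGATA2 groups were lowest. IGF1 fell with 25 μM enzalutamide in siControl cells by 1.05 (standard error 0.117, adjusted p = 4.86e-05, limma, n = 3). With siGATA2 it fell by 2.01 in vehicle (adjusted p = 1.39e-07) and fell by 0.73 in enzalutamide (adjusted p = 0.000308, limma). The value for the drug in siGATA2 cells was 0.23 (adjusted p = 0.518), and the interaction was 1.28 (standard error 0.165, adjusted p = 0.000375, limma). With 1 RPKM added in place of 0.1, these called values shrank to -0.64, -1.07, -0.34 and 0.73, all still called.

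RefSeq promoter windows (GRCh38.p14, 300 bases each, 250 of them before the transcript start) were found for 9 members. Both strands were searched for the androgen receptor hexamer AGAACA, held by 14.8% of all 35116 windows, for the GATA site AGATAA, held by 10.3%, and for the forkhead site of FOXO factors, GTAAACA, held by 3.42%. The first of the IGF1 windows holds GTAAACA, with its first base at position -247, and IGFBP2 holds the hexamer on the opposite strand in 2 of its 3 windows. None of the 3 motifs lies in any window of the other members searched. The IGF1 window is shown because IGF1 changed with DHT, with enzalutamide in siControl cells and with siGATA2. The motif is in capitals, and the window lies on the minus strand at chr12:102481748-102481997, the 250 bases before the start.
IGF1: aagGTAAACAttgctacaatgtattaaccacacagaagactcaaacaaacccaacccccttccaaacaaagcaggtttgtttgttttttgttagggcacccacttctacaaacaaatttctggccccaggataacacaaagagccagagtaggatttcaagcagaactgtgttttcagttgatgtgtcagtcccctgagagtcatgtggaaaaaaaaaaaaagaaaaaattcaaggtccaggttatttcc
Over its full 300 bases, of which 250 are shown, the window is 42.3% G or C, below the median of 58.7% of all windows. A match describes letters only, and no binding was measured here.

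IGF2, the fetal growth factor expressed from an imprinted locus, had between 31.9 and 83.9 estimated counts in each ligand library. It was at 1.39 and 1.14 CPM in vehicle, 1.15 and 1.44 CPM at 4 h of enzalutamide, 1.28 and 1.39 CPM at 24 h, 1.09 and 1.19 CPM at 4 h of DHT and 0.584 and 0.967 CPM at 24 h. The DHT 24 h libraries were lowest, and each of the other treated groups overlapped vehicle. From 4 h to 24 h of DHT the difference was -0.60 and not called (adjusted p = 0.0595, edgeR). It was called in 7 of 18 alternatives, with values from -0.97 to -0.24. IGF2 fell with DHT at 24 h by 0.76 (standard error 0.244, adjusted p = 0.0196, edgeR, n = 2). The call was lost with DESeq2 (adjusted p = 0.0943), without vehicle replicate 1 (-0.60, 0.154) and without DHT 24 h replicate 1 (-0.40, 0.249), in a range of 0.00327 to 0.249.

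SiGATA2 moved IGF2 upward. It was at 0.683, 0.729 and 0.839 RPKM in siControl vehicle, 0.798, 0.784 and 0.861 RPKM in siControl with enzalutamide, 2.35, 2.28 and 1.91 RPKM in siGATA2 vehicle and 1.88, 2.02 and 1.82 RPKM in siGATA2 with enzalutamide. Every siGATA2 library exceeded every siControl library, and the drug groups overlapped their vehicle groups. IGF2 rose with siGATA2 by 1.42 in vehicle (standard error 0.0946, adjusted p = 3.73e-07, limma, n = 3) and by 1.13 in enzalutamide (adjusted p = 2.19e-06), or by 0.86 and 0.68 with 1 RPKM added. The interaction of -0.29 was not called (adjusted p = 0.148), but was without siGATA2 vehicle replicate 3 (-0.38, 0.0426, limma, the lowest of a range up to 0.282). IGF2 shares exons with the read-through gene INS-IGF2, which all 9 tables list as well, so how reads were divided between them adds an uncertainty that the tables do not show.

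The receptor IGF1R showed the clearest response to androgen among the members. It was at 24.7 and 23.6 CPM in vehicle, 23.3 and 24.5 CPM at 4 h of enzalutamide, 25.9 and 26.9 CPM at 24 h, 56.8 and 55.8 CPM at 4 h of DHT and 52.1 and 53.6 CPM at 24 h. The 4 DHT libraries were far above the 6 others, which lay close together. IGF1R rose with DHT by 1.22 at 4 h (standard error 0.0487, adjusted p = 2.9e-09) and by 1.13 at 24 h (standard error 0.0492, adjusted p = 1.21e-09, edgeR, n = 2). Against the replicate 1 vehicle column of the same column-name set, the ratio was 1.12 and 1.09 on the log2 scale in the 4 h replicates and 1.14 and 1.16 in the 24 h replicates. The set of the 4 h replicates also holds vehicle replicate 2, which was not used for this ratio. By column totals IGF1R was at 26.5 CPM in that set's replicate 1 column and at 23.9 CPM in replicate 2. Its values for enzalutamide were -0.017 after 4 h (adjusted p = 0.88) and 0.13 after 24 h (0.0729, edgeR).

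With siGATA2, IGF1R went from 2.29, 2.38 and 2.28 RPKM in siControl vehicle to 1.30, 1.28 and 1.23 RPKM. Under enzalutamide the siControl libraries were at 2.44, 2.23 and 2.37 RPKM and the siGATA2 libraries at 1.39, 1.31 and 1.24 RPKM. The siRNA groups stood apart and the drug groups overlapped. IGF1R fell with siGATA2 by 0.82 in vehicle (standard error 0.0566, adjusted p = 5.08e-07, limma, n = 3) and by 0.79 in enzalutamide (adjusted p = 6.5e-07), with an interaction of 0.023 (standard error 0.0801, adjusted p = 0.876) that turned to -0.011 with median centring. For enzalutamide its value was 0.017 in siControl and 0.040 in siGATA2 cells (adjusted p = 0.852 and 0.875, limma). The promoter window of IGF1R is shown beside those of IRS1, IRS2 and IGFBP3 because these 4 rose together at 4 h of DHT. They lie at chr15:98648289-98648538 (plus strand), chr2:226799821-226800070 (minus), chr13:109786584-109786833 (minus) and chr7:45921273-45921522 (minus), each the 250 bases before the start in GRCh38.p14, with no capitals since they hold none of the motifs.
IGF1R: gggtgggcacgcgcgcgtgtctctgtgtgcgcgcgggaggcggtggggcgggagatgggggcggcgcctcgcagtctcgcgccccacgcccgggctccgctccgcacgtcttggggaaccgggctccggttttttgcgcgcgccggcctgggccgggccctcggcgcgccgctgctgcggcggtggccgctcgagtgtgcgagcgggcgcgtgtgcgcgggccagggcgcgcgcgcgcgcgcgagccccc
IRS1: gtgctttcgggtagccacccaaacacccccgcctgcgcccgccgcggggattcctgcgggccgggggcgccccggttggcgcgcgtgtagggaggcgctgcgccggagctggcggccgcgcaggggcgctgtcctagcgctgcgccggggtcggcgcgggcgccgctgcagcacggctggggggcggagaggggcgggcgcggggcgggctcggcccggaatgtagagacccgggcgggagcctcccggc
IRS2: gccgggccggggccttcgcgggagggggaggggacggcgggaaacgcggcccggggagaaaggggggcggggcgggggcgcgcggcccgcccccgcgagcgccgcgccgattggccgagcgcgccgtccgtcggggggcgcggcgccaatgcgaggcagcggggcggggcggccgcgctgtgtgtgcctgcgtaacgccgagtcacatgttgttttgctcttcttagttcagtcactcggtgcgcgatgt
IGFBP3: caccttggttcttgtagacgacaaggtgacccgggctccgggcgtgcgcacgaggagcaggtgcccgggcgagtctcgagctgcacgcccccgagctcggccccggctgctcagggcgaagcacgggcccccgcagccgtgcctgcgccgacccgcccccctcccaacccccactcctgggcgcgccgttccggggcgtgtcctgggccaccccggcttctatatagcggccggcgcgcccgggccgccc
Over their full 300 bases, of which 250 are shown, these windows are 79.7%, 79.3%, 75.7% and 74.7% G or C, in that order. All are above the median of all windows. The absence of the letters concerns these windows alone.

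INSR, the insulin receptor gene, moved little. It was at 41.8 and 42.1 CPM in vehicle, 45.6 and 51.2 CPM at 4 h of enzalutamide, 47.3 and 48.2 CPM at 24 h, 42.5 and 41.6 CPM at 4 h of DHT and 41.2 and 47.5 CPM at 24 h. The enzalutamide libraries lay above vehicle and the DHT groups overlapped it. INSR rose with enzalutamide at 24 h by 0.19 (standard error 0.0666, adjusted p = 0.0452, edgeR, n = 2), close to the threshold. The call was lost with DESeq2 (0.0777), RLE size factors (0.0707), the term for the column-name set (0.193), and without vehicle replicate 1 (0.176) or 2 (0.143), enzalutamide 24 h replicate 1 (0.14) or 2 (0.213), or DHT 4 h replicate 1 (0.0777) or 2 (0.077), in a range of 0.00927 to 0.213. At 4 h of the drug its value was 0.21 (adjusted p = 0.056, edgeR), which passed in 6 of 18 alternatives, namely without a filter (0.00499), with 4 separate vehicle columns (0.0209), with the set term (0.32, 0.0114), and without enzalutamide 4 h replicate 1 (0.00795), DHT 24 h replicate 1 (0.0318) or DHT 24 h replicate 2 (0.032), in a range of 0.00499 to 0.371.

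In the siRNA libraries INSR was at 6.54, 6.63 and 6.34 RPKM in siControl vehicle, 7.27, 7.18 and 7.14 RPKM in siControl with enzalutamide, 8.15, 8.40 and 7.86 RPKM in siGATA2 vehicle and 8.81, 8.95 and 8.63 RPKM in siGATA2 with enzalutamide. The 4 groups did not overlap and followed each other in that order. INSR rose by 0.14 with enzalutamide in siControl cells (standard error 0.0301, adjusted p = 0.00293, limma, n = 3), by 0.32 with siGATA2 in vehicle (adjusted p = 5.68e-06) and by 0.29 with siGATA2 in enzalutamide (adjusted p = 1.33e-05). In siGATA2 cells the value for the drug was 0.11 (adjusted p = 0.198, the lowest of the 10 members there), and the interaction was -0.033 (adjusted p = 0.636, limma), so the drug's effect was not shown to differ between the siRNAs.

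Of the receptor substrates, IRS1, the docking protein first known from insulin signalling, peaked at 4 h of DHT. It was at 5.43 and 6.52 CPM in vehicle, 8.28 and 6.89 CPM at 4 h of enzalutamide, 8.89 and 9.76 CPM at 24 h, 11.6 and 12.2 CPM at 4 h of DHT and 6.55 and 6.50 CPM at 24 h. The DHT 4 h libraries were highest and those of DHT at 24 h were back within reach of vehicle. IRS1 rose with DHT at 4 h by 1.01 (standard error 0.105, adjusted p = 2.71e-05, edgeR, n = 2) and was 0.14 from vehicle at 24 h (adjusted p = 0.322), a difference between the times of -0.87 (standard error 0.104, adjusted p = 1.52e-05). It rose with enzalutamide at 24 h by 0.66 (standard error 0.108, adjusted p = 0.000442, edgeR). At 4 h of the drug its value was 0.35 (adjusted p = 0.053, edgeR), which passed without a filter (0.0109), with 4 separate vehicle columns (0.0201), and without vehicle replicate 2 (0.0392) or enzalutamide 4 h replicate 2 (0.0233), in a range of 0.0109 to 0.362. The difference of 0.30 between the times of enzalutamide was likewise at the threshold (adjusted p = 0.0518, edgeR), and passed with library totals (0.0481), without a filter (0.0163), with at least 1 CPM in 2 libraries (0.0479), and without vehicle replicate 1 (0.0419), vehicle replicate 2 (0.042) or enzalutamide 4 h replicate 1 (0.0114), in a range of 0.0114 to 0.344.

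IRS1 in the siRNA experiment ranged from 0.551 to 0.751 RPKM over the 12 libraries, with 0 calls in its 5 comparisons (limma, 1 at an unadjusted p below 0.05). That value was 0.20 for siGATA2 in vehicle (adjusted p = 0.0761), which passed in limma with 1 RPKM added (0.0409), without the trend (0.038) and with median centring (0.0238), in a range of 0.0238 to 0.215. For 25 μM enzalutamide in siControl cells it was 0.070 (adjusted p = 0.579, limma).

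IRS2, a substrate through which insulin acts in liver and beta cells, was at 3.12 and 2.36 CPM in vehicle, 4.87 and 4.64 CPM at 4 h of enzalutamide, 3.55 and 4.24 CPM at 24 h, 8.65 and 7.95 CPM at 4 h of DHT and 3.81 and 4.23 CPM at 24 h. All treated libraries were above vehicle, and those of DHT at 4 h stood apart. IRS2 rose with DHT at 4 h by 1.57 (standard error 0.135, adjusted p = 4.29e-06, edgeR, n = 2), the highest value of any member in the ligand experiment. It was also up after 24 h of DHT by 0.52 (standard error 0.147, adjusted p = 0.00977, edgeR), with a difference between the times of -1.05 (standard error 0.130, adjusted p = 1.9e-05). This later call was lost with the term for the column-name set (0.109) and without vehicle replicate 2 (0.0715) or DHT 24 h replicate 2 (0.0587), in a range of 0.0007 to 0.109.

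Enzalutamide raised IRS2 by 0.77 at 4 h (standard error 0.144, adjusted p = 0.00417) and by 0.48 at 24 h (standard error 0.146, adjusted p = 0.0224, edgeR, n = 2). The 24 h value was 0.21 (0.414) with the term for the column-name set, 0.31 (0.16) without vehicle replicate 2 and 0.34 (0.203) without enzalutamide 24 h replicate 2, in a range of 0.00321 to 0.414. Against the vehicle column of the same set the log2 ratio was 0.66 and 0.59 in the replicates at 4 h and 0.10 and 0.35 at 24 h. The difference of -0.29 between the times was not called (adjusted p = 0.148, edgeR).

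With the higher dose, IRS2 was at 1.34, 1.35 and 1.34 RPKM in siControl vehicle and 1.95, 2.12 and 2.37 RPKM in siControl with enzalutamide, beside 1.49, 1.27 and 1.14 RPKM in siGATA2 vehicle and 1.28, 1.43 and 1.23 RPKM in siGATA2 with enzalutamide. The siControl libraries with the drug were alone in standing above the rest, which overlapped. IRS2 rose with enzalutamide in siControl cells by 0.64 (standard error 0.101, adjusted p = 0.000527, limma, n = 3). In siGATA2 cells the value was 0.016 (adjusted p = 0.991), and the interaction of -0.62 was called (standard error 0.143, adjusted p = 0.00986, limma). IRS2 fell by 0.67 with siGATA2 in enzalutamide (adjusted p = 0.000201, limma), while its value in vehicle was -0.050 (adjusted p = 0.717) and turned to 0.024 with median centring.

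Among the binding proteins, IGFBP3, the main carrier of IGFs in serum and an inhibitor of growth in many cell types, was called in every comparison with vehicle or siControl but those of DHT at 24 h and of the drug in siGATA2 cells. It was at 4.00 and 5.08 CPM in vehicle, 7.95 and 7.92 CPM at 4 h of enzalutamide, 8.46 and 8.59 CPM at 24 h, 9.13 and 9.55 CPM at 4 h of DHT and 4.74 and 4.10 CPM at 24 h. Enzalutamide at both times and DHT at 4 h were above vehicle without overlap, and DHT at 24 h lay within it. IGFBP3 rose with enzalutamide by 0.83 at 4 h (standard error 0.112, adjusted p = 0.000439) and by 0.93 at 24 h (standard error 0.110, adjusted p = 2.91e-05, edgeR, n = 2). Against the vehicle column of the same set, the log2 ratio was 1.11 and 1.11 in the replicates at 4 h and 0.78 and 0.81 at 24 h. DHT raised it by 1.06 at 4 h (standard error 0.109, adjusted p = 2.39e-05, edgeR), and at 24 h its value was -0.0070 (adjusted p = 0.968), of either sign among the alternatives. The times of DHT differed by -1.07 (standard error 0.109, adjusted p = 3.71e-06), and those of enzalutamide by 0.10 (adjusted p = 0.51, edgeR).

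Among the siRNA libraries IGFBP3 was at 4.53, 4.24 and 4.84 RPKM in siControl vehicle, 9.12, 8.91 and 9.07 RPKM in siControl with enzalutamide, 1.24, 0.968 and 1.07 RPKM in siGATA2 vehicle and 1.16, 1.08 and 1.36 RPKM in siGATA2 with enzalutamide. The drug group of siControl was highest, and the siGATA2 groups overlapped each other far below both siControl groups. IGFBP3 rose with enzalutamide in siControl cells by 0.98 (standard error 0.0950, adjusted p = 1.82e-05, limma, n = 3). Its value in siGATA2 cells was 0.13 (adjusted p = 0.699), and the interaction of -0.85 was called (standard error 0.134, adjusted p = 0.0012, limma). With siGATA2 IGFBP3 fell by 1.96 in vehicle (adjusted p = 3.55e-08) and fell by 2.82 in enzalutamide (adjusted p = 2.94e-09, limma). The marker lists given above moved with siGATA2 in vehicle and with the drug in siControl cells as well, and their part in these changes was not tested.

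IGFBP2, the binding protein with the most transcript in these cells, stayed between 43.5 and 55.1 CPM over all ligand libraries. It was at 50.7 and 53.5 CPM in vehicle, 52.8 and 53.2 CPM after 4 h of enzalutamide, then 44.6 and 43.5 CPM after 24 h. The 24 h libraries of the drug lay below all others. IGFBP2 fell with enzalutamide at 24 h by 0.24 (standard error 0.0521, adjusted p = 0.00336, edgeR, n = 2) and was 0.27 lower than at 4 h (adjusted p = 0.00246). For DHT its values were -0.069 after 4 h (adjusted p = 0.524) and 0.0081 after 24 h (0.909, edgeR), the later one turning to -0.050 with library totals in place of TMM factors. Over the siRNA libraries it ranged from 57.0 to 71.8 RPKM. It fell by 0.21 with siGATA2 in enzalutamide (adjusted p = 0.0143, limma, n = 3), a call lost without siGATA2 enzalutamide replicate 3 (0.0568, the highest of a range from 0.00434). Its value for siGATA2 in vehicle was -0.091 (adjusted p = 0.235), and that for enzalutamide in siControl cells was 0.021 (adjusted p = 0.828, limma).

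IGFBP5, a binding protein that also attaches to extracellular matrix, was barely detected in the ligand experiment, with 15 and 9 counts in vehicle, 5 and 15 after 4 h of enzalutamide, 10 and 7 after 24 h, 19 and 9 after 4 h of DHT and 4 and 3 after 24 h of it. The DHT 24 h libraries were lowest, and their counts limit what can be measured. IGFBP5 fell with DHT at 24 h by 1.65 (standard error 0.624, adjusted p = 0.0419, edgeR, n = 2), and this call was kept in 8 of 17 alternatives. Among the alternatives that ended it were DESeq2 (0.149), the term for the column-name set (0.116), and fits without vehicle replicate 1 (0.154) or 2 (0.0833), enzalutamide 24 h replicate 1 (0.0548) or 2 (0.0544), or DHT 24 h replicate 1 (0.169) or 2 (0.114), in a range of 0.0234 to 0.169. Between the times of DHT the value was -1.78 (adjusted p = 0.0264, edgeR). That call was lost with DESeq2 (0.11), the set term (0.187), and without DHT 4 h replicate 1 (-1.14, 0.255), DHT 24 h replicate 1 (0.128) or DHT 24 h replicate 2 (0.0843), in a range of 0.0112 to 0.255.

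In the siRNA libraries IGFBP5 was at 1.12, 1.02 and 1.08 RPKM in siControl vehicle, 0.930, 0.751 and 0.758 RPKM in siControl with enzalutamide, 0.666, 0.504 and 0.597 RPKM in siGATA2 vehicle and 0.461, 0.423 and 0.442 RPKM in siGATA2 with enzalutamide. The 4 groups did not overlap and followed each other downward in that order. IGFBP5 fell with siGATA2 by 0.77 in vehicle (standard error 0.105, adjusted p = 9.22e-05, limma, n = 3) and by 0.75 in enzalutamide (adjusted p = 0.000119), or by 0.38 and 0.33 with 1 RPKM added. It fell by 0.37 with enzalutamide in siControl cells (adjusted p = 0.0172, limma), or fell by 0.19 with 1 RPKM added, and this call was lost without siControl vehicle replicate 1 (0.0563), siControl enzalutamide replicate 2 (0.064) or replicate 3 (0.0606), in a range of 0.00569 to 0.064. In siGATA2 cells the value was -0.34 (adjusted p = 0.26, limma), and the interaction of 0.026 (adjusted p = 0.932), which turned to -0.0087 with median centring, did not show a difference between the siRNAs.

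IGFBP4, a binding protein that mainly inhibits IGF action, is not listed in the vehicle table of the ligand experiment and had at most 3 counts in any other ligand library, too few for a test. In the siRNA experiment it ranged from 0.264 to 0.559 RPKM. It had 0 calls in 5 comparisons (limma, 1 at an unadjusted p below 0.05). For enzalutamide in siControl cells its value was -0.35 (adjusted p = 0.0855, limma), and -0.49 (0.0264) without siControl enzalutamide replicate 1, in a range of 0.0264 to 0.281.

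Around the members, lists of insulin and IGF pathway genes held 71 further genes, of which 58 were tested in the ligand experiment and 69 in the siRNA experiment. Enzalutamide raised 17 and lowered 4 of the 58 at 4 h (edgeR), where 6.94% of all tested genes rose and 6.68% fell, and raised 19 and lowered 11 after 24 h, against 16.4% and 17.0% of all genes. DHT raised 3 and lowered 7 after 4 h, against 4.66% and 2.11%, and raised 9 and lowered 26 after 24 h, against 26.9% and 23.2%. Of the 69, 25 μM enzalutamide raised 24 and lowered 16 in siControl cells, against 17.7% and 24.4% of all genes. In siGATA2 cells, where 0.221% and 0.191% of all genes were called, it called 0 of 69 (limma; at an unadjusted p below 0.05 CBL, FOXO1 and FOXO3 were higher and PIK3R3, DEPTOR and RPS6KB2 lower). SiGATA2 raised 29 and lowered 21 in vehicle, against 24.2% and 31.4%, and raised 25 and lowered 21 in enzalutamide, against 26.3% and 28.1%. The interaction was called upward for 10 and downward for 16, against 15.0% and 10.8%. The median log2 fold change of these genes was 0.020, 0.042, -0.050 and -0.13 for enzalutamide at 4 h, enzalutamide at 24 h, DHT at 4 h and DHT at 24 h.

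The largest increases with enzalutamide among these genes were those of 3 genes that restrain the pathway or its ligands. TRIB3, a pseudokinase that binds AKT, rose from 75.7 CPM on average in vehicle to 147 CPM at 4 h and 158 CPM at 24 h (log2 fold change 0.96 and 1.06, adjusted p = 3.27e-08 and 4.01e-10, edgeR). DDIT4, an inhibitor of mTOR complex 1 that acts through TSC1 and TSC2, rose by 0.75 and 0.87, and STC2, a secreted inhibitor of the protease PAPPA that frees IGFs from IGFBP4, rose by 0.84 at both times. In siControl cells with 25 μM enzalutamide TRIB3 went from 22.8 to 86.0 RPKM, DDIT4 from 175 to 588 RPKM and STC2 from 15.2 to 36.7 RPKM on average (log2 fold change 1.91, 1.75 and 1.27, limma). Their group means in siGATA2 cells were 17.5 and 17.7 RPKM for TRIB3, 313 and 333 RPKM for DDIT4 and 9.64 and 9.61 RPKM for STC2 without and with the drug. The interaction was called for each, at -1.89, -1.65 and -1.27 (adjusted p = 3.54e-06, 2.23e-05 and 1.89e-05, limma). Of the 14 inhibitors of the signal, 10 rose and 1 fell with the drug in siControl cells, against 17.7% and 24.4% of all genes. With 10 μM enzalutamide 5 rose and 1 fell of the 13 tested at 4 h, against 6.94% and 6.68% of all genes, and 5 rose and 1 fell after 24 h, against 16.4% and 17.0%. STC1, a paralogue of STC2, fell by 1.42 at 24 h of 10 μM enzalutamide and by 2.24 in siControl cells with 25 μM (adjusted p = 0.00275 in edgeR and 5.2e-05 in limma), at levels below 1 CPM and 1 RPKM. IGFBPL1, an IGFBP-like gene, fell by 0.98 and fell by 0.64 in the same comparisons, also at low levels. It was at 0.991 CPM on average in vehicle and at 0.323 and 0.670 CPM at 24 h of the drug. In siControl cells IGFBPL1 went from 0.274 to 0.140 RPKM on average, close to the 0.1 RPKM added. FOXO3 rose by 0.59 in siControl cells, and PIK3R3, a regulatory subunit gene of phosphatidylinositol 3-kinase, fell there by 0.84.

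With 24 h of DHT the largest increase among these genes was that of MTOR, the kinase of both mTOR complexes, from 95.8 to 149 CPM on average (log2 fold change 0.64, adjusted p = 7.14e-08, edgeR). GRB10, an adaptor that inhibits both receptors, was the most abundant of those named, and fell from 925 to 395 CPM (-1.23, adjusted p = 1.62e-12, edgeR). The other named genes that fell were SOCS3 (-2.42), IGFALS (-1.58), HTRA1 (-1.45) and SOCS1 (-1.36), which all had less than 3 CPM in vehicle. At 4 h of DHT no gene called in the lists outside the members passed 1.5-fold, while the called members IGF1R, IRS1, IRS2 and IGFBP3 all exceeded it.

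SiGATA2 in vehicle raised PIK3R3 from 36.4 to 77.8 RPKM on average (log2 fold change 1.09, adjusted p = 5.75e-07, limma), and IGFALS (1.57), DDIT4 (0.83) and CRK (0.70) also rose. Of these, IGFALS was weakly expressed, at 0.267 RPKM on average in siControl vehicle and 0.984 RPKM in siGATA2 vehicle. EIF4EBP1, a repressor of translation that mTOR inactivates, fell from 120 to 47.1 RPKM (-1.34, adjusted p = 3.94e-10, limma), and ENPP1 (-1.21), PIK3R1 (-0.97), IGF2BP2 (-0.73) and STC2 (-0.66) fell as well. In enzalutamide siGATA2 raised PIK3R3 (1.71), IGFALS (1.53), STC1 (1.23) and IGF2R (0.94), and lowered TRIB3 (-2.28), STC2 (-1.92), EIF4EBP1 (-1.73), GRB14 (-1.18) and HTRA1 (-1.06). There IGFALS went from 0.281 to 0.995 RPKM and STC1 from 0.0994 to 0.352 RPKM on average. The fold of STC1 thus depends on the 0.1 RPKM added. IGF2R, which encodes the receptor that clears IGF2 from the cell surface, was at 22.5 RPKM in siControl with enzalutamide and 43.3 RPKM in siGATA2 with enzalutamide. PIK3R3 and PIK3R1, regulatory subunits of the same kinase, thus changed in opposite directions with siGATA2 in vehicle.

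**Figure D4:**
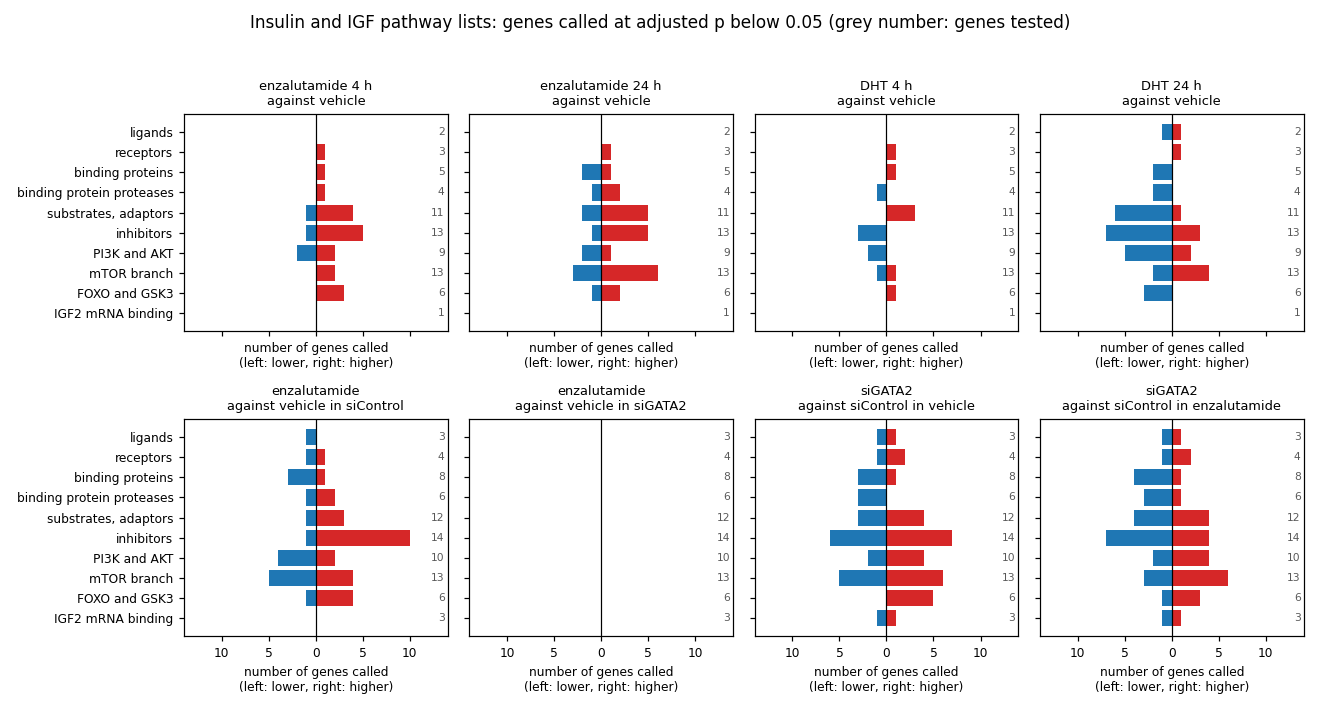
Number of genes called up (right) and down (left) in each of 10 insulin and IGF pathway lists, members included, for 8 comparisons; the grey number is how many of the list were tested. The inhibitors reach 10 up in siControl cells with enzalutamide, and the panel for enzalutamide in siGATA2 cells is empty.

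Genes with the most similar pattern were ranked by the mean of 2 Pearson correlations, one over the 10 ligand libraries and one over the 12 siRNA libraries, for the 8 members called in both experiments. The libraries fall into treatment groups, so these correlations mostly reflect group means. Closest to IGF1R were BTG1 (0.986), OTULINL (0.980) and SLC45A3 (0.974), and closest to IGF1 were BMPR1B (0.979), NT5DC3 (0.979) and TRPM8 (0.979). IGFBP3 was followed by ERN1 (0.953), RNF24 (0.926) and RCBTB1 (0.923), and IRS2 by ERRFI1 (0.941), TSC22D1 (0.876) and MAPK6 (0.872). For IGF2 the nearest were GATA2-AS1 (0.943), UBL5 (0.939) and ST5 (0.937). The remaining members had CHD2 (0.897), KMT2A (0.882) and LAMA5 (0.881) nearest to INSR, PLLP (0.896), PAX1 (0.896) and UGT2B17 (0.895) nearest to IGFBP5, and MAP3K3 (0.870), KCTD5 (0.866) and SEPT9 (0.863) nearest to IGFBP2.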

How the data were processed

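The authors aligned the reads to hg19 with TopHat2 2.0, and the estimated counts per gene of the ligand experiment were made with Partek before they were deposited, per the submitters' processing notes. The RPKM values per gene of the siRNA experiment were likewise deposited as made by the authors, although the names of those tables speak of read counts. The members and lists were chosen with earlier results of these data known. The 3 vehicle columns of the ligand experiment numbered replicate 1 were summed, although the record lists 4 vehicle samples and does not say that they share a library, which left 10 libraries in 5 groups; their mean chi-square per gene against each other was 1.51 to 1.54, and 3.42 to 3.59 against replicate 2 (medians 0.578 to 0.609 and 1.05 to 1.09, where sampling alone gives 0.455), so they differed by more than sampling. Counts were rounded, filtered with filterByExpr, normalized with TMM and tested with the quasi-likelihood test of edgeR 4.0.16. RPKM values above 0 in at least 3 of the 12 libraries were tested as log2(RPKM + 0.1) with limma 3.58.1 and its trend. R 4.3.3, Python 3.11.15 and matplotlib 3.10.9 were used, and 0 value columns were left unused. Replicate numbers were checked for pairing by the correlation of deviations from group means, which exceeded 0.1 for all 3 numbers in 1 of 6 pairs of siRNA groups, siControl and siGATA2 with enzalutamide (0.113, 0.241 and 0.148), a hint from the data and not from the labels. It also did in 3 of 10 pairs of ligand groups (0.194 for vehicle and DHT 24 h, 0.132 for the times of enzalutamide, 0.138 for those of DHT), which have too few numbers to tell, and was as low as -0.161 in others. Alternatives were DESeq2 1.42.0, other normalizations, filters, added constants and centring, separate vehicle columns, the replicate block, leaving out each library and, chosen after seeing the data, a term for the column-name set and ratios within a set. The sets nearly follow the groups. Set ZC1 holds both DHT 4 h libraries, ZC2 both of enzalutamide at 4 h and ZC3 both of enzalutamide at 24 h. The DHT 24 h libraries are split between ZC2 and ZC3, and each set has a vehicle column. Comparisons between times therefore also cross sets. Those with vehicle do so too, since vehicle replicate 1 was summed over ZC1, ZC2 and ZC3, and vehicle replicate 2 is in ZC1 alone. Of the pathway lists, genes called and changed by more than 1.5-fold were named, at most 5 in each direction and comparison; 1 gene that met this rule is not reported here. Genes named outside this rule were chosen after their values were seen.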

Additional observations from a re-analysis of the deposited data

Results flagged for a closer look

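IGFBP2 was picked out because it differed between the times of enzalutamide, with a log2 difference of -0.27 from 4 h to 24 h. IGF1 differed between the times of DHT, with 0.54 from 4 h to 24 h. IGFBP3 differed between the same times, with -1.07. IGFBP5 differed between them by -1.78, at the low counts given above. IRS1 differed between them by -0.87. IRS2 differed between them by -1.05. IGF1 was picked out because its response to enzalutamide differed between the siRNAs, with an interaction of 1.28. IGFBP3 was picked out in the same way, with -0.85. IRS2 was likewise, with -0.62.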

How the results depend on the processing

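Of 44 calls of members, 35 were kept in every alternative that tested the gene, 9 were lost in some and 0 reversed. Of 60 values not called, 11 were called in some. The number of members called was 4 in place of 2 at 4 h of enzalutamide without a filter and with 4 vehicle columns, 3 to 5 at 24 h of the drug when a library was left out, 3 in place of 5 at 24 h of DHT with DESeq2 and with the term for the column-name set (3 to 5 when a library was left out), 3 in place of 1 between the times of enzalutamide with library totals and with at least 1 CPM in 2 libraries, 2 without a filter (1 to 2 when a library was left out), 3 in place of 5 between the times of DHT with the term for the set (7 with library totals, 4 to 6 when a library was left out), and 3 in place of 5 for enzalutamide in siControl with a mean of at least 1 RPKM, where fewer members were tested. Over the alternatives other than left-out libraries, the count ranged from 4 to 6 at 24 h of enzalutamide, 4 to 5 at 4 h of DHT, 4 to 7 for siGATA2 in vehicle, 6 to 8 for siGATA2 in enzalutamide and 2 to 3 for the interaction. The replicate block gave 4 in place of 5 at 24 h of DHT, where IGFBP5 was no longer called (adjusted p = 0.0523, edgeR), and changed no other count. Values that turned sign were all of results not called, and the cause was not tested. With the set term they were IGF1R 0.021 and IGF2 -0.0020 at 4 h of enzalutamide, IGF2 -0.13 at 24 h, INSR -0.013 at 4 h of DHT, IGFBP3 0.052 at 24 h of DHT and IGF2 -0.13 between the times of enzalutamide. With 4 vehicle columns they were IGF2 -0.0048 at 4 h of enzalutamide and IGFBP3 0.014 at 24 h of DHT, with library totals INSR -0.011 at 4 h and IGFBP2 -0.050 at 24 h of DHT, and with at least 1 CPM IGFBP2 -0.0052 at 24 h of DHT. With median centring they were IRS2 0.024 for siGATA2 in vehicle, IRS1 0.0091 for siGATA2 in enzalutamide, and IGF1R -0.011 and IGFBP5 -0.0087 for the interaction. When a library was left out, ranges that crossed 0 at 4 h of enzalutamide were -0.057 to 0.016 for IGF1R, -0.22 to 0.095 for IGF1, -0.16 to 0.18 for IGF2, -0.018 to 0.059 for IGFBP2 and -1.02 to 0.34 for IGFBP5, and at 24 h -0.064 to 0.21 for IGF2. At 4 h of DHT they were -0.0070 to 0.024 for INSR, -0.28 to 0.0020 for IGF2 and -0.51 to 0.58 for IGFBP5, and at 24 h -0.027 to 0.18 for INSR, -0.065 to 0.080 for IGFBP2 and -0.19 to 0.16 for IGFBP3. Between the times of enzalutamide they were -0.10 to 0.059 for INSR, -0.11 to 0.21 for IGF2 and -0.83 to 0.51 for IGFBP5, and between those of DHT -0.038 to 0.17 for INSR and -0.00073 to 0.14 for IGFBP2. In the siRNA experiment they were -0.011 to 0.052 for IGF1R and -0.020 to 0.062 for IGFBP2 with enzalutamide in siControl, -0.070 to 0.11 for IRS2 with enzalutamide in siGATA2, -0.15 to 0.036 for IRS2 with siGATA2 in vehicle, -0.079 to 0.032 for IRS1 with siGATA2 in enzalutamide, and -0.014 to 0.059 for IGF1R and -0.065 to 0.12 for IGFBP5 in the interaction. Scaling moved the share of upward calls among all genes called to 42.1% from 53.7% at 24 h of DHT with library totals, and with median centring to 54.0% from 42.1% for enzalutamide in siControl, 53.6% from 43.5% for siGATA2 in vehicle and 66.3% from 53.6% for enzalutamide in siGATA2. It also turned the majority with library totals at 4 h of enzalutamide (47.8% from 51.0%), at 24 h (50.4% from 49.1%), between these times (51.9% from 47.7%) and between those of DHT (44.4% from 52.9%), with RLE size factors at 4 h of enzalutamide (47.9%), and with median centring for siGATA2 in enzalutamide (53.8% from 48.4%) and the interaction (48.6% from 58.0%). The set term moved it to 36.3% from 47.7% between the times of enzalutamide, and turned the majority at 4 h of the drug (42.8% from 51.0%). There it left 524 genes up and 700 down, in place of 1080 and 1039.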
